A study of Caenorhabditis elegans with 2 samples.

Results

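The 10 genes described here encode kinases, a receptor and a transcription factor that control SKN-1 or act beside it in C. elegans. They are nsy-1, sek-1, pmk-1, gsk-3, daf-2, age-1, akt-1, akt-2, sgk-1 and daf-16, chosen by name from 19973 nuclear protein-coding genes, and all 10 were found in the annotation. For each gene, peak summits were collected in its introns and in windows that began 2000 bp before each annotated 5′ end and closed 200 bp after it. The data are chromatin immunoprecipitation maps (ChIP-seq) of eGFP-tagged SKN-1 in whole L3 larvae, with the sexes mixed, from 1 group of 2 biological replicates. Both replicates came from strain OP342, which carries the unc-119(ed3) allele and the integrated transgene wgIs342. The tagged protein is thus made from a transgene, and the labels name no second genotype, treatment or time. No control sample was analysed here. Whole animals were used, so a summit does not say in which tissue SKN-1 was bound.

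SKN-1 is the worm relative of the mammalian Nrf factors and drives detoxification and oxidative stress genes, chiefly in the intestine. The p38 cascade activates it. NSY-1, a MAP kinase kinase kinase, acts on the MAP kinase kinase SEK-1, which acts on the p38 kinase PMK-1, and PMK-1 phosphorylates SKN-1 and promotes its entry into intestinal nuclei. Insulin-like signalling restrains it. The receptor DAF-2 acts through the phosphatidylinositol 3-kinase AGE-1 on the kinases AKT-1, AKT-2 and SGK-1, which phosphorylate SKN-1 and, in parallel, the FOXO factor DAF-16. The kinase GSK-3 also phosphorylates SKN-1 and keeps it inactive. The question put to the maps was therefore where the SKN-1 fusion itself was found at the genes of its own regulators.

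Each peak carries the authors' signal value, a score whose unit is not stated in the labels or files, which is used below only to rank peaks within 1 list. Ranks count from 1, the highest signal value. The pooled list, made from both replicates, held 30000 lines, the replicate 1 list 22350 and the replicate 2 list 30000. These 3 lists hold background as well as peaks. A further list was thresholded by the irreproducible discovery rate (IDR), which measures how well peak ranks repeat between replicates. It held 1778 peaks, with signal values down to 26.9. Their summits were those of the 1778 highest pooled lines. An IDR-thresholded peak did not always have a match in both replicate lists. The pooled q-values stop at a ceiling of 3.78 on the −log10 scale, which 3047 pooled lines share, all 1778 IDR-thresholded peaks among them. Read depth cannot be read from peak lists, so no interval is given.

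Of the 10 genes, 3 had an IDR-thresholded summit in the searched sequence, and each had exactly 1. These were akt-2, daf-2 and daf-16, all in the insulin branch, and none of nsy-1, sek-1 and pmk-1 had one. Over all protein-coding genes the share was 10.8% (2152 of 19973). No test was made on this count, because the genes were chosen with earlier results of these data known. Most genes had no such summit, so its absence from nsy-1, sek-1 and pmk-1 does not set the branches apart. With promoter windows alone, 2 of the 10 genes had an IDR-thresholded summit (akt-2 and daf-16), against 10.1% of all genes. The akt-2 summit lay upstream of the gene, the daf-2 summit deep in an intron, and the daf-16 summit in an intron upstream of a late 5′ end.

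The sequences around the strongest pooled summit of each of 4 genes are shown first, ahead of the values on their letters. The daf-16 sequence is not shown. Each is 101 bp of ce11 centred on a summit, read from the RefSeq WBcel235 genome and written 5′ to 3′ on the strand of its gene. Capitals mark the letters CTCTCT in the first 2. In the akt-1 sequence they mark the binding consensus of SKN-1, WWTRTCAT, where W stands for A or T and R for a purine, read here on the opposite strand. The sgk-1 sequence held neither. The akt-2 window is chrX:14146920-14147020 (+ strand), the daf-2 window chrIII:3036154-3036254 (− strand), the akt-1 window chrV:10247900-10248000 (+ strand) and the sgk-1 window chrX:16260329-16260429 (− strand).
akt-2, IDR-thresholded: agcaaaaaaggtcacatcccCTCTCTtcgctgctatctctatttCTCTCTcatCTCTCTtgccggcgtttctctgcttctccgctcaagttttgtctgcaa
daf-2, IDR-thresholded: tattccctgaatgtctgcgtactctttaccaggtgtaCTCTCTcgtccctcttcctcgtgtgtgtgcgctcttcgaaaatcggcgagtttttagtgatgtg
akt-1, below the threshold: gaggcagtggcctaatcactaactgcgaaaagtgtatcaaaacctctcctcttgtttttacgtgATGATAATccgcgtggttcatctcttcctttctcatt
sgk-1, below the threshold: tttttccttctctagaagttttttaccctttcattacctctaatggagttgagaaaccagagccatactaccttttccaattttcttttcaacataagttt

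The consensus was found at few summits, both at these genes and over the whole IDR-thresholded list. WWTRTCAT, searched on both strands with its centre within 50 bp of the summit, was found at 0 of the 3 IDR-thresholded summits of the 10 genes, and so was RTCAT, a shorter core that every match to the consensus contains. Over all 1778 IDR-thresholded summits, 12.4% held the consensus and 41.7% the core. In windows of the same length centred 300 bp to either side, the shares were 5.82% and 34.2%. Among the 11 summits of these genes at the ceiling of the q-value score, the akt-1 summit shown was the 1 with the consensus, and 6 held the core. The DAF-16 binding element GTAAACA was found at 1 of these 11, the second akt-1 summit, which is below the IDR threshold. It was at 0 of the 3 IDR-thresholded summits of these genes, 1.86% of all IDR-thresholded summits and 1.38% of flanking windows. Of all 63 pooled summits of the 10 genes, 5 held the SKN-1 consensus (7.94%). Shares over all pooled summits, or over all those at the ceiling, were not counted. The shares given for IDR-thresholded summits are therefore not a like comparison for these 2 sets. The absence of letters from a window of this size says nothing on whether the factor was there.

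A run of CTCTCT, letters picked after the sequences were seen, was present at all 3 IDR-thresholded summits. It occurred 3 times at akt-2, with the nearest centre 3.5 bp from the summit, once at daf-2 (10.5 bp) and once at daf-16 (27.5 bp). Among the 11 summits of these genes at the ceiling, 4 held CTCTCT, and among all their 63 pooled summits 13 did (20.6%). The run was not counted over all pooled summits or all those at the ceiling. Over all 1778 IDR-thresholded summits 23.7% held it within 50 bp on either strand, against 5.01% of the flanking windows. A match to WWTRTCAT and a CTCTCT can share at most 1 base. The shorter run CTCTC, which every CTCTCT contains, was found at 43.0% of all IDR-thresholded summits and 14.3% of flanks. The akt-2 and daf-2 windows shown had 47.5% and 48.5% G and C, inside the interquartile range of all IDR-thresholded summits (38.6% to 50.5%).

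Along the p38 and insulin genes the strongest pooled summit ranged from rank 336 to rank 13595. In order, the highest pooled signal value was 55.8 at akt-2, 43.7 at daf-2 and 37.2 at daf-16, all above the threshold. It was 22.7 at sgk-1 and 22.0 at akt-1, then 13.7 at sek-1, 12.8 at nsy-1, 11.1 at gsk-3, 8.87 at pmk-1 and 7.78 at age-1. The pooled list has a median of 7.28, so the last of these sat close to the middle of a list that includes background. The order of the first 5 was the same in replicate 2 and differed in replicate 1. Replicate 1 put daf-16 first (rank 267), then akt-1 (750), daf-2 (966) and akt-2 (1421). Replicate 2 put akt-2 first (rank 364), then daf-2 (927), daf-16 (1015), sgk-1 (1890) and akt-1 (3104). The genes akt-2, daf-2 and daf-16 stood within the 1778 highest lines of both replicates, while their order among themselves differed between the replicates.

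**Figure D1:**
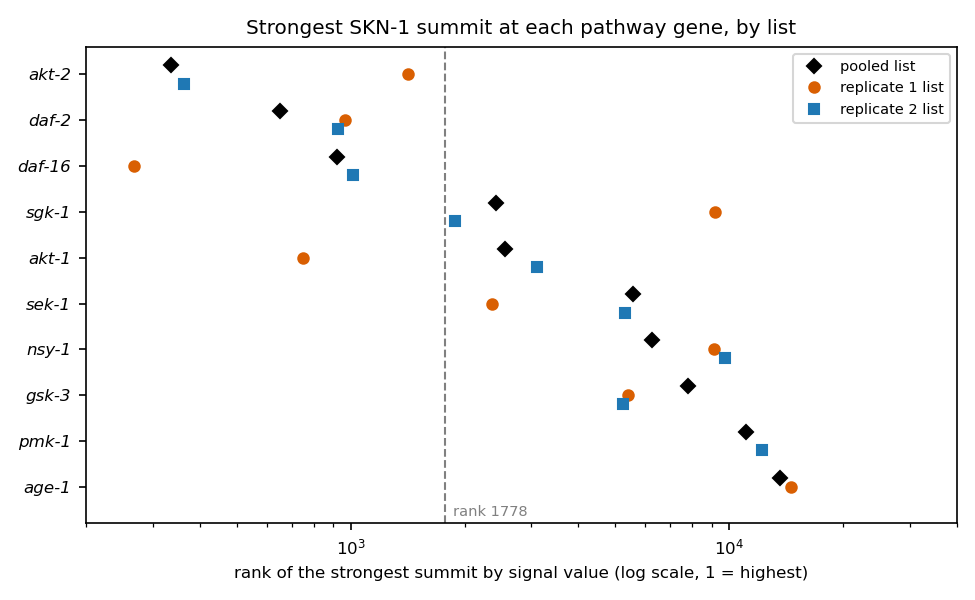
Rank of the strongest summit in the searched sequence of each gene (log scale, 1 is the highest signal value) in the pooled, replicate 1 and replicate 2 lists, with a dashed line at rank 1778, the length of the IDR-thresholded list. The points of a gene can be different summits. Only akt-2, daf-2 and daf-16 lie left of the line in all 3 lists, pmk-1 has no replicate 1 point and age-1 no replicate 2 point.

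The kinase gene akt-2 (X, 14147700 to 14152070, + strand) had the strongest summit of the 10. AKT-2 is 1 of the worm's Akt kinases, which phosphorylate SKN-1 and DAF-16 in response to insulin-like signals. The peak (X, 14146805 to 14147134) had its summit at 14146970, in intergenic sequence 730 bp upstream of the single annotated 5′ end. Its rank was 336 in the pooled list. In replicate 1 the matching summit, 50 bp away, had rank 1421 and signal value 9.59. In replicate 2 the matching summit, 3 bp away, had rank 364 and signal value 40.9. Replicate 2 thus placed the site higher in its list than replicate 1 did. No other protein-coding gene has this summit in its searched sequence, and the next gene upstream, ceh-89, ends 2081 bp before it. The other 4 pooled summits at akt-2 were weaker, the next at rank 5114. Of all protein-coding genes, 2.42% had a pooled summit as strong as that of akt-2 or stronger in their own searched sequence.

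The receptor gene daf-2 spans 46.3 kb (III, 2994514 to 3040846, − strand) with 7 annotated 5′ ends. Its IDR-thresholded peak (III, 3036039 to 3036368, summit 3036204) lay in an intron, 4642 bp downstream of the first 5′ end and 7404 bp upstream of the next. The rank was 651 in the pooled list, 966 in replicate 1 (signal value 11.4, 44 bp away) and 927 in replicate 2 (27.6, 19 bp away), so both replicates placed it alike. The same position lies in an exon of linc-143, a long intergenic noncoding RNA gene on the same strand inside that intron (III, 3035541 to 3037543), 1339 bp past its 5′ end. A second daf-2 summit at the ceiling, at pooled rank 2803 (signal value 20.7), was 4 bp inside the 5′ end of linc-143. It ranked 2659 in replicate 1 and 4126 in replicate 2. The peak lists cannot tell whether these sites belong to daf-2, to linc-143 or to both. One more, at pooled rank 2085 (signal value 24.7), lay 1193 bp upstream of the 5′ end of the isoform a transcript, with matches in both replicates at ranks 4469 and 2206. The other 9 of the 12 pooled daf-2 summits stood no higher than rank 9381.

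The gene daf-16 encodes the FOXO factor that insulin-like signalling keeps out of the nucleus, and it spans 26.2 kb with 11 transcripts from 7 annotated 5′ ends (I, 10750498 to 10776703, + strand). The IDR-thresholded peak (I, 10769795 to 10770124, summit 10769960) was 19462 bp downstream of the first 5′ end. It was also 1548 bp upstream of the 5′ end of the isoform a transcript, and so lay in an intron of the longer isoforms. It ranked 918 in the pooled list. Replicate 1 had it at rank 267 (signal value 19.2, 8 bp away) and replicate 2 at rank 1015 (26.5, 63 bp away). Here replicate 1 placed the site higher, the reverse of akt-2. The noncoding gene R13H8.5, on the opposite strand, ends 128 bp from the summit.

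The daf-16 gene also had the most summits. Its searched 26.0 kb held 27 pooled summits, 19 of replicate 1 and 23 of replicate 2. The 54 protein-coding genes with a searched length within 10% of that of daf-16, itself included, a comparison added after the values were seen, had a median of 7 pooled summits. For daf-2, with 12 pooled summits, the median of 12 such genes was 11.0. The same comparison gave 5 against 1.00 at both akt-1 and akt-2, 4 against 1.00 at sek-1 and 4 against 2.00 at gsk-3. At nsy-1 and pmk-1 it gave 2 against 1.00, and at age-1 and sgk-1 1 against 2.00. Per kb, akt-1 (1.19) and akt-2 (1.14) held more pooled summits than daf-16 (1.04). Of the 27 pooled summits at daf-16, 7 had a match within 100 bp in both replicates. Just below the IDR threshold were summits at rank 2042 (signal value 24.9), 762 bp downstream of a 5′ end, and at rank 2255 (23.7), far inside an intron. The first matched ranks 1746 and 2591 in replicates 1 and 2. The second matched rank 1476 in replicate 2, and replicate 1 held no counterpart.

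**Figure D2:**
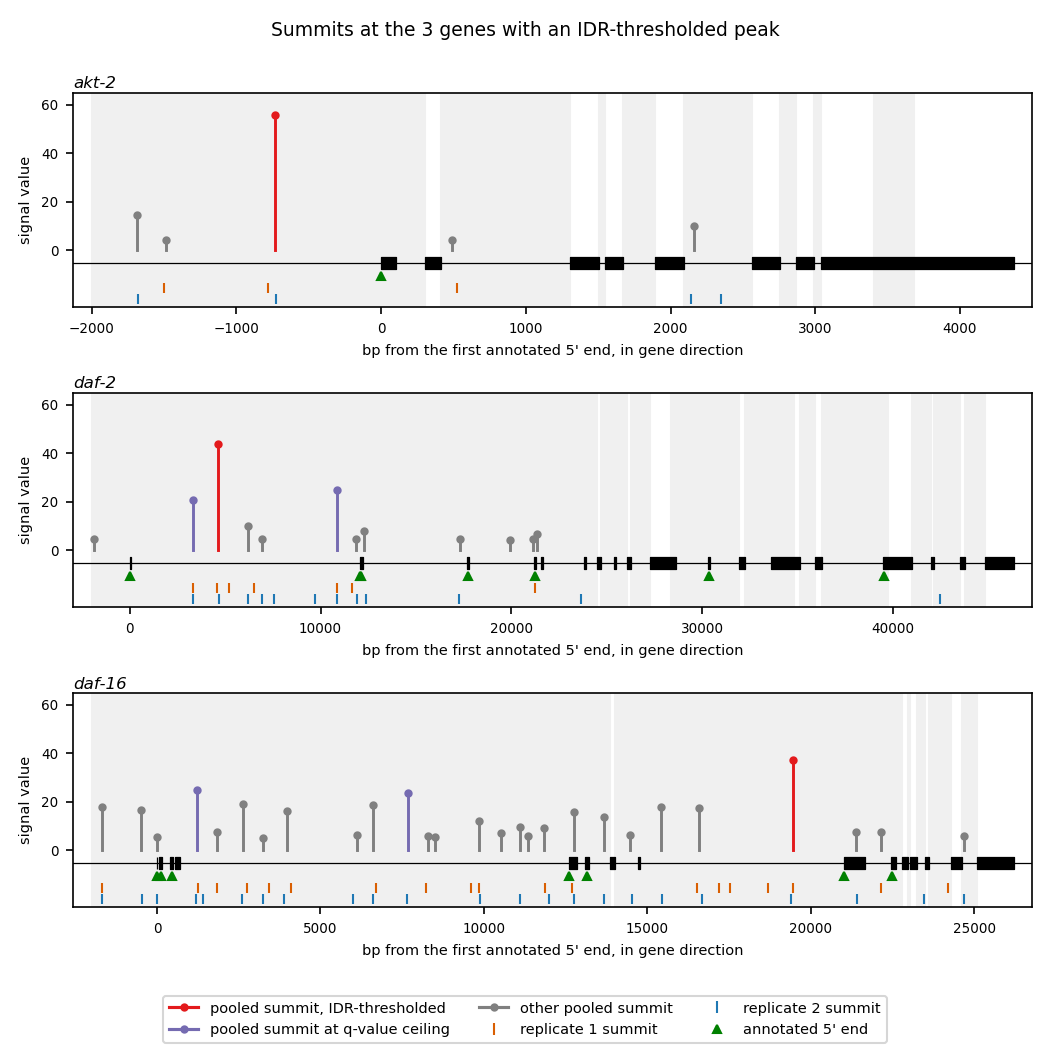
Summits at akt-2, daf-2 and daf-16 against distance in bp from the first annotated 5′ end of each gene, in the direction of the gene. The height of a line is the pooled signal value, ticks below are replicate summits, black boxes are exons of any transcript, triangles are 5′ ends and shading is the searched sequence. The IDR-thresholded summits reach 55.8, 43.7 and 37.2, and daf-16 holds summits along its whole length.

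The kinase genes akt-1 and sgk-1 had pooled summits at the ceiling of the q-value score and below the IDR threshold. With that looser limit, 5 of the 10 genes were counted (akt-1, akt-2, daf-2, daf-16 and sgk-1), against 16.6% of all genes. At akt-1 (V, 10248905 to 10252845), whose product is the other Akt kinase, 3 summits had nearly the same pooled signal value, 22.0, 21.8 and 20.8. The first, 955 bp upstream, ranked 750 in replicate 1 and 5870 in replicate 2. The second, 1755 bp upstream and inside an exon of the noncoding gene C12D8.25, ranked 2827 and 3104. The third, in an intron 396 bp downstream of a 5′ end, had no match in replicate 1 and ranked 3553 in replicate 2. With the highest 1778 lines of replicate 1 in place of the IDR-thresholded list akt-1 was counted too, and with those of replicate 2 it was not.

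The gene sgk-1 (X, 16254842 to 16262122, − strand) encodes a serum- and glucocorticoid-inducible kinase homolog, which has been reported to phosphorylate SKN-1 with the Akt kinases. It had a single pooled summit, of signal value 22.7 and rank 2422, in an intron 251 bp upstream of its late 5′ end. In replicate 2 it ranked 1890 at the same base, and in replicate 1 no summit lay within 100 bp. The strongest replicate 1 summit of sgk-1 was elsewhere and ranked 9196. The sgk-1 site therefore rests on replicate 2.

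The gene age-1 (II, 11519328 to 11527054, − strand), for the catalytic subunit of phosphatidylinositol 3-kinase, had the weakest evidence of the insulin branch. Its 6.46 kb of searched sequence held 1 pooled summit, of rank 13595, in an intron 3146 bp downstream of the first 5′ end. Replicate 1 had it at rank 14597 of 22350. No replicate 2 line fell in the searched sequence at all.

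No pooled summit of the p38 cascade reached the ceiling of the q-value score. At sek-1 (X, 7816734 to 7821036) 3 pooled summits lay upstream, at 1799, 1225 and 463 bp, with signal values of 13.7, 12.7 and 11.4 (ranks 5574, 6305 and 7518). All 3 are also inside an intron of R03G5.6, a gene on the opposite strand whose 5′ part overlaps sek-1. Replicate 2 matched each of them, at ranks 5314, 5792 and 5418, and replicate 1 matched the first alone, at rank 2362. Of these matches, the replicate 1 one and those at ranks 5314 and 5418 of replicate 2 were at the ceiling of their own list. The gene nsy-1 (II, 5022757 to 5029999) had a summit 1890 bp upstream with a signal value of 12.8 (rank 6251). Neither replicate had a match within 100 bp, and the nearest replicate 2 summit lay 1740 bp upstream of nsy-1, at rank 9772. Another nsy-1 summit, 207 bp upstream with a signal value of 9.31 (rank 10284), was matched at ranks 9129 and 10770. Both pooled summits are also in the searched sequence of F59A6.13.

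At pmk-1, the p38 kinase that acts on SKN-1, the searched 2.96 kb held 2 pooled summits, with signal values of 8.87 and 4.28, and no replicate 1 line. The gene is the last of 3 p38 kinase genes in a row on the same strand (IV, 8139219 to 8151266). Gaps of 345 bp and 145 bp separate pmk-3 from pmk-2 and pmk-2 from pmk-1, and the cluster is known as an operon, a group of genes transcribed together. An IDR-thresholded summit lay inside this cluster, 438 bp upstream of pmk-2 and 5732 bp upstream of pmk-1, in an exon of pmk-3, 92 bp from its 3′ end. It is outside the window used for pmk-1. Its rank was 1524 in the pooled list, 802 in replicate 1 and 1986 in replicate 2. The pmk-2 window (chrIV:8143012-8143112, + strand) is shown because it holds the core RTCAT 3 times on the printed strand, in capitals.
pmk-2, IDR-thresholded: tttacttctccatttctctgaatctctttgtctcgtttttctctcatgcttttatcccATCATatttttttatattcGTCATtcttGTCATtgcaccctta

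The gene gsk-3 (I, 12819216 to 12825602, + strand), for the kinase that holds SKN-1 inactive, had 4 pooled summits and none of them at the ceiling. The strongest, 200 bp upstream of the 5′ end, had a signal value of 11.1 and rank 7797. It matched rank 8076 in replicate 2. Of the 4, replicate 2 matched 3 and replicate 1 matched 0, and the single replicate 1 summit of gsk-3 lay elsewhere at rank 5416.

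**Figure D3:**
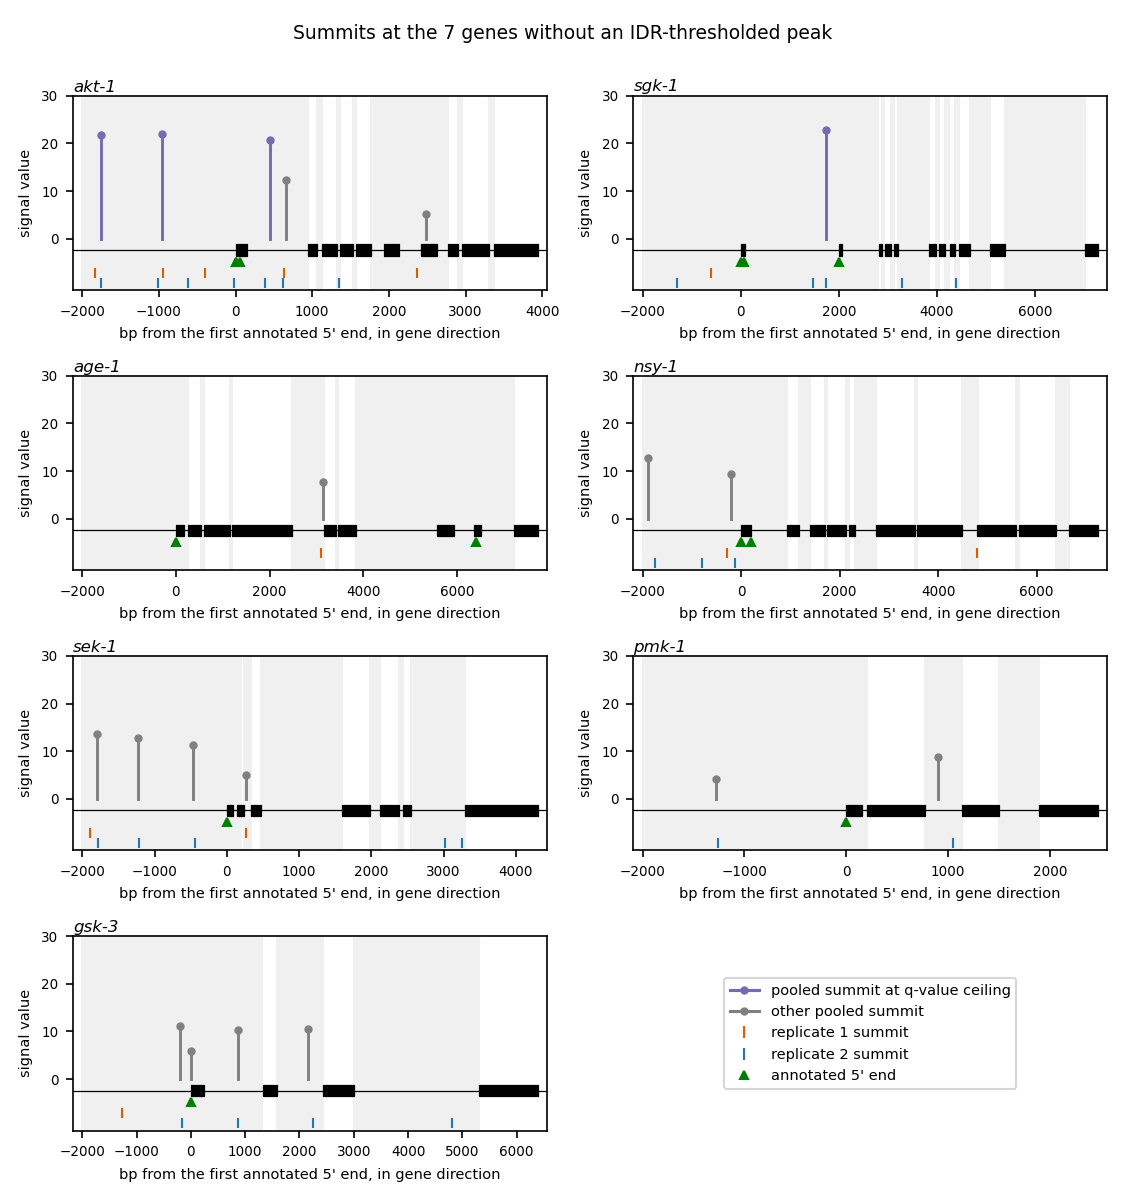
Summits at the 7 genes without an IDR-thresholded summit, drawn as for akt-2, daf-2 and daf-16, with signal values on an axis up to 30. Pooled summits at the ceiling of the q-value score appear at akt-1 (22.0, 21.8 and 20.8) and sgk-1 (22.7), and none of the other 5 genes exceeds 13.7.

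Many genes carry some line of the long lists. A pooled summit was found at 10 of the 10 genes and at 62.3% of all protein-coding genes. A replicate 1 summit was found at 9 of 10, against 55.2% of all genes, and a replicate 2 summit at 9 of 10, against 62.2%. The 10 genes are longer than most, with a median searched length of 5.41 kb against 2.94 kb. Per length, their 109.4 kb held 2.74 IDR-thresholded summits per 100 kb (3 summits), against 2.33 over the searched sequence of all protein-coding genes. For pooled summits the values were 57.6 and 33.0 per 100 kb. Without daf-2 and daf-16 the remaining 8 genes held 2.44 IDR-thresholded and 58.5 pooled summits per 100 kb. The p38 cascade genes nsy-1, sek-1 and pmk-1 held 68.1 pooled, 34.0 replicate 1 and 85.1 replicate 2 summits per 100 kb. Over all protein-coding genes these values were 33.0, 24.4 and 32.6. The share of genes with an IDR-thresholded summit was larger for longer searched sequence, from 9.85% of genes under 5 kb to 22.9% of those of 20 kb or more, the class of daf-2 and daf-16. These length classes were set after the values were seen.

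**Figure D4:**
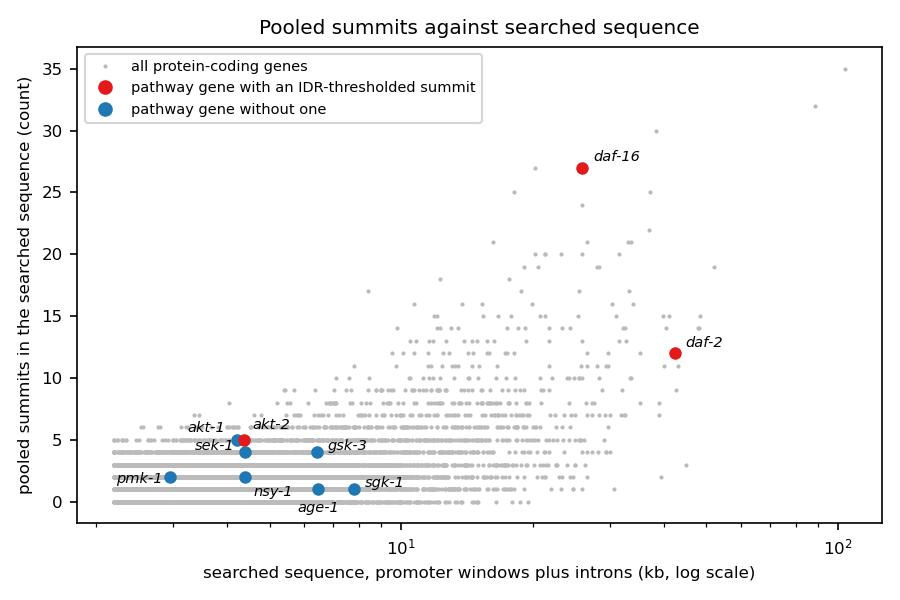
Number of pooled summits against searched sequence in kb (log scale) for all protein-coding genes in grey and the 10 genes in colour. With 27 summits in 26.0 kb daf-16 lies near the top of genes of its length, and daf-2, with 12 in 42.3 kb, lies among the genes of its own length.

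Of the 63 pooled summits at the 10 genes, 39 were at daf-2 and daf-16. Promoter windows held 32 and introns alone 31. Within 100 bp, 16 had a summit in both replicates (25.4%, against 17.4% of all pooled summits), 27 in replicate 2 alone, 9 in replicate 1 alone and 11 in neither. The replicate 2 list (30000 lines) is longer than the replicate 1 list (22350). Matches in 1 replicate alone were not counted over all pooled summits. The pooled list was made from the same alignments as the replicate lists, and the IDR-thresholded list from all 3, so a match is partly built in.

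Other genes of both pathways, with related stress kinase, TOR and regulator genes, were counted from a list of 48. Of these, 47 were in the annotation under the symbol used. An IDR-thresholded summit was found at 15 of the 47 (31.9%), again beside 10.8% of all genes and without a test. The median searched length of these 47 genes was 4.04 kb, against 2.94 kb for all protein-coding genes. The shares were not adjusted for length. The median rank of their 18 summits was 806.5, against 889.5 for the whole list, so they were not concentrated at its top. Both replicates matched 13 of the 18. How many of all IDR-thresholded summits were matched in both was not counted. With matched summits alone, 11 of the 47 genes had one, against 9.55% of all genes.

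In the list of p38 and other stress kinase genes, which also holds regulators that are not kinases, 6 of 15 had such a summit. The highest was at wdr-23, which encodes a repressor of SKN-1 and not a kinase, at rank 6, and it ranked 5 in each replicate. A second wdr-23 summit had rank 1347. The gene vhp-1, for a MAP kinase phosphatase that acts on PMK-1 and KGB-1, had 3 summits, at ranks 426, 668 and 991. The first ranked 5840 in replicate 1 and 285 in replicate 2, the second 346 and 1135, and the last had no replicate 1 match and ranked 417 in replicate 2. The JNK-like kinase gene kgb-1 had a summit 556 bp upstream at rank 367, which T07A9.12 shares. The ERK gene mpk-1 had an intronic one at rank 453 with no replicate 1 match, and the MAP kinase kinase gene mek-1 one 600 bp upstream at rank 1498. With pmk-2, described above, these are the 6. The mek-1 summit lay in an exon of K08A8.4 and ranked 583 in replicate 1 and 3245 in replicate 2. The vhp-1 summit at rank 991 also lay in an exon of anr-54. The vhp-1 window at rank 991 (chrII:5330491-5330591, + strand) is shown because it holds the consensus, in capitals, on the other strand.
vhp-1, IDR-thresholded: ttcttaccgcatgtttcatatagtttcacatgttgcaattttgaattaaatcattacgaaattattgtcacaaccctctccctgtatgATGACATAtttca

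Among insulin and TOR pathway genes, 9 of 32 had an IDR-thresholded summit. The gene aap-1, for the adaptor subunit of phosphatidylinositol 3-kinase, had a summit of rank 87 (446 in replicate 1 and 71 in replicate 2). That summit was 1652 bp upstream and was shared with chp-1, pas-3 and use-1, so these genes cannot be told apart as its target. The gene pdk-1, for the kinase that phosphorylates Akt, had an intronic summit of rank 381, with ranks of 386 and 353 in the replicates. The gene pptr-1, for a regulatory subunit of protein phosphatase 2A that acts on AKT-1, had one 1370 bp upstream of rank 278, with ranks of 409 and 386. These last 2 were placed alike by both replicates.

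In the TOR branch, daf-15, the worm raptor gene, had a summit of rank 890, rheb-1, for a small GTPase, one of rank 1082 shared with spk-1, and rsks-1, for S6 kinase, one of rank 1706. The rheb-1 summit had no replicate 1 match and the rsks-1 summit no replicate 2 match. The AMP-activated kinase gene aak-2 had an intronic summit of rank 839, which ranked 126 in replicate 1 and 2174 in replicate 2. The gene smk-1, for a cofactor of DAF-16, had one of rank 774, shared with vps-60. At eak-4, which acts with akt-1, a summit of rank 1061 lay 1880 bp upstream, inside an exon of F53B2.8, with no replicate 1 match. The other 23 genes of this list, among them daf-18, ist-1, let-363, rict-1 and the insulin-like peptide genes listed, had none.

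**Figure D5:**
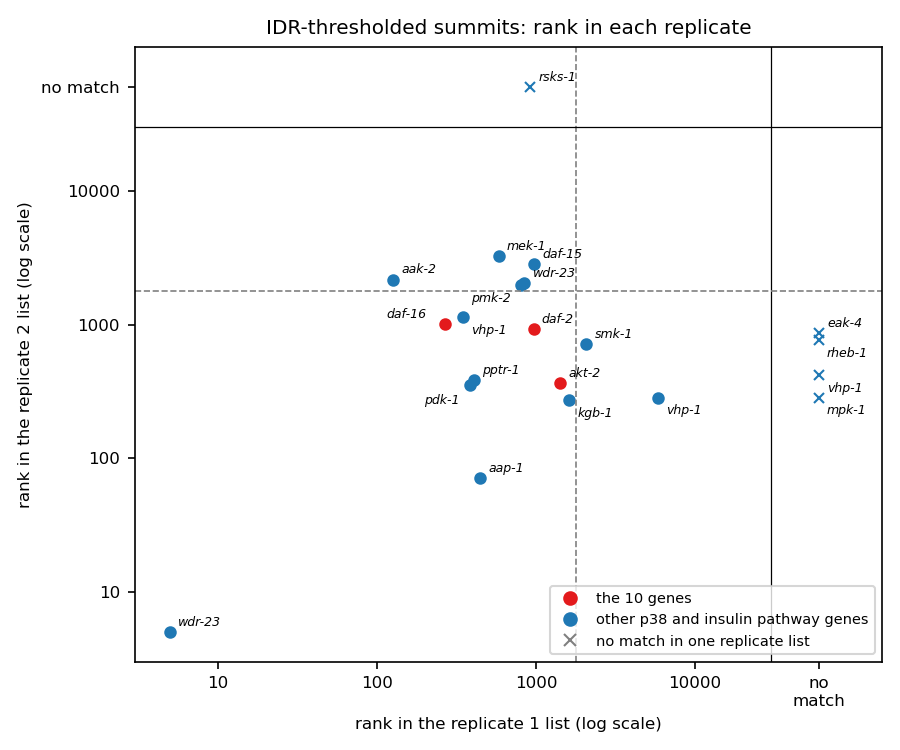
Rank in the replicate 1 list against rank in the replicate 2 list (log scales) for the 3 IDR-thresholded summits of the 10 genes in red and the 18 of other pathway genes in blue, with dashed lines at rank 1778. Crosses mark the 5 summits with no match within 100 bp in 1 replicate. The daf-16, daf-2 and akt-2 points lie inside both dashed lines.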

How the data were processed

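ChIP-seq peak lists on ce11 were used, 4 in all, and the 4 ce10 lists were not used here. The readme texts the authors deposited derive each replicate list from 1 alignment and a further file not described there, the pooled list from both alignments and that file, and the IDR-thresholded list from the pooled and replicate lists. Neither labels nor files name the aligner, peak caller or IDR threshold. The signal value is a score on the authors' scale, and the deposited q-value is −log10 of q. All IDR-thresholded summits were among the 1778 highest pooled lines. Summits were computed from the deposited offset, coordinates are 1-based, and all peak ends lay within the WBcel235 chromosomes (at most 0.99993 of its length). Gene models were those of Ensembl release 115, and sequences were read from the RefSeq WBcel235 genome, whose chromosomes carry the ce11 coordinates.

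Searched sequence was the union of windows around every annotated 5′ end (2000 bp upstream, 200 bp downstream) and all introns of a gene. Summits within 100 bp were matched between lists. The search was tested on simulated summits (Python 3.11.15, NumPy 2.4.6). No statistical test was made, since there is 1 group of 2 replicates. The genes, lists and alternatives were chosen with earlier results of these data known. The genes named are the 10, any protein-coding gene sharing their IDR-thresholded summits, and each listed pathway gene with such a summit. Other genes named, the noncoding ones among them, were chosen after their values were seen. Alternatives covered windows, introns, thresholds, replicates, assignment, match distance and motif letters.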

Additional observations from a re-analysis of the deposited data

How the results depend on the processing

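The count of 3 genes of 10 stayed within 1.5 times of itself under 9 of 10 alternatives, with 2 to 4 genes, and was 5 with the pooled list at the ceiling of the q-value score, where the share of all genes was 16.6%. Leaving out 1 replicate gave 3 genes (replicate 2 alone) or 4 (replicate 1 alone, with akt-1 added). The shares of all genes were then 10.5% and 9.78%. The names moved as well: akt-2 was lost with 500 bp upstream, daf-2 with promoter windows only and daf-16 in the upper part of the IDR-thresholded list. In that upper part the share of all genes was 5.92% and the other pathway genes numbered 9. Their count of 15 was 8 with 500 bp upstream, against 7.37% of all genes, and 23 at the ceiling, against 16.6%. It was 12 or 21 when replicate 1 or replicate 2 was left out, beside the 10.5% and 9.78% above. The 3 IDR-thresholded summits matched in both replicates at 100 bp and 200 bp, and 2 did at 50 bp. The matched share of all IDR-thresholded summits was not counted. The consensus was found at 0 of 3 under each of the 4 motif alternatives run. No paired analysis was possible because there is 1 group. Read depth is unknown, so nothing can be said of sites too weak for these lists.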

Other observations

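Over their whole searched sequence, the 10 genes held 74 matches to WWTRTCAT, 0.677 per kb, against 0.548 per kb over the searched sequence of all protein-coding genes. At daf-2 there were 28 matches and at daf-16 12, with 0 within 50 bp of either IDR-thresholded summit. The genes nsy-1 (1.36 per kb), sgk-1 (1.28) and akt-1 (1.19) had the most per length. Of the 18 summits of the other pathway genes, 4 held the consensus (22.2%, against 12.4% of all IDR-thresholded summits), at eak-4, vhp-1 and wdr-23. CTCTCT was found at 3 (16.7%, against 23.7%), at kgb-1, rheb-1 and rsks-1, and the shorter CTCTC at 10 (55.6%, against 43.0%).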
